A study of Mus musculus with 10 samples.

Results

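Resistin-like and chitinase-like proteins are secreted proteins of barrier tissues and myeloid cells. The members described here were 6 of the 31053 genes counted in single cells of the mouse distal lung, matched on symbol: Retnla and Retnlg, the chitinase family genes Chia1, Chil1 and Chil3, and Pglyrp1, which encodes a peptidoglycan recognition protein. They were selected because earlier results from the same libraries showed them to vary, so their levels are given as a description and without a test. All 6 were found in every library.

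The cells were alveolar type 2 (AT2) cells and their descendants, sorted as EpCAM+ cells that carried a fluorescent lineage label, and profiled with 10x 3′ single-cell RNA-seq. In Sftpc-CreERT2;R26R-Confetti mice tamoxifen labels AT2 cells RFP+ or YFP+ without adding an oncogene, and 1 library of each colour was available. In the other line, called the mutant line here, the same recombinase makes RFP+ cells mutant while YFP+ cells beside them are wildtype, and 2 libraries of each colour were available at 4 days and 2 at 2 weeks. All groups therefore share the Sftpc-driven recombinase and 3 doses of 0.2 mg/g tamoxifen. The mice were 8-week-old adults of both sexes with a mixed genetic background (C57BL/6Brd-Tyrc-Brd), each library pooled at least 2 lungs, and the labels give no time for the Confetti groups, which the study's methods place at 2 weeks. The spread between libraries is therefore a spread between pools of lungs.

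Of 42012 barcodes, 32698 passed the filters, and 30599 of these had no UMI (unique molecular identifier, a counted transcript) of Ptprc, the pan-leukocyte marker CD45. The remaining 2099 cells were Ptprc-positive, from 0.964% of the 4 days RFP replicate 1 library to 34.8% of the 2 weeks YFP replicate 2 library. Median depth was 3257 to 15529 UMIs per cell, and both 2 weeks RFP libraries were the deepest. All 8 AT2 markers were detected in the Ptprc-zero cells of every library, and the summed level of 7 immune markers besides Ptprc was 85.6 to 901 CPM there (UMIs of a gene scaled to a common total of all UMIs of the class), highest in 2 weeks YFP replicate 2 and 4 days RFP replicate 2. Clusters were called from genes other than the members. In the 29526 Ptprc-zero cells of epithelial clusters the same immune sum was 45.8 to 77.2 CPM, and where it changes a value both are given. Xist and the Y-linked Ddx3y differed between libraries, at 723 and 724 CPM of Xist with no Ddx3y in the Confetti libraries and under 0.4 CPM of Xist in each replicate 2 of the mutant line. A comparison with Confetti is thus also one of mouse line and of the sexes pooled, which cannot be told apart here. Replicate 1 at 4 days lay near Confetti for several members and replicate 2 near the 2 weeks libraries, for both colours. Pairs of libraries shared 1 to 17 cell barcodes.

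Retnla (RELM alpha, FIZZ1) and its neighbour Retnlg encode cysteine-rich secreted resistin-like molecules. Retnla is a classical target of interleukin-4 and interleukin-13 signalling through the transcription factor STAT6, in alternatively activated macrophages and in lung epithelium, and Retnlg is known from myeloid cells. Chia1 encodes acidic mammalian chitinase, an active enzyme that cleaves chitin in the airways and stomach. Chil1 and Chil3 (Ym1) encode family members that bind sugars but have lost chitinase activity, and Chil3 is a hallmark of mouse alveolar macrophages. Pglyrp1 is a secreted antibacterial protein stored in neutrophil granules.

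The members lie in 4 places of the GRCm38 genome (GENCODE models). Retnla (chr16:48842551-48844461, plus strand, 4 exons) and Retnlg (chr16:48872621-48874496, plus strand, 4 exons) are neighbours 28159 bases apart with no protein-coding gene between them, and the gut gene Retnlb lies 23658 bases to the other side of Retnla. Chia1 (chr3:106113229-106132120, plus strand, 11 exons) and Chil3 (chr3:106147554-106167564, minus strand, 11 exons) are 15433 bases apart, followed by Chil4 33925 bases beyond Chil3. Chil1 (chr1:134182176-134190181, plus strand, 11 exons) lies 30635 bases from Chit1, and Pglyrp1 spans chr7:18871331-18890459 on the plus strand. No member overlapped another annotated gene. Of the 30-base words in Chil3 transcripts 42.5% occurred in other genes, 29.96% in Chil4, against 5.79% of Retnla words and 5.85% of Retnlg words, all in each other. Reads from sequence shared by Chil3 and Chil4 can therefore not be assigned to either gene with certainty. Chil4 itself received only 127 UMIs in Ptprc-zero and 18 in Ptprc-positive cells.

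Promoter stretches of 3 genes are shown. Retnla and Retnlg are neighbours that were lowest in the same libraries, and Chil3 had most of its UMIs in Ptprc-positive cells. Retnla is a textbook STAT6 target. The genes were picked with their levels known, and no link between motif and level was tested. They come from RefSeq windows of GRCm38.p6 (250 bases before a start site to 50 after it), written 5′ to 3′ on the gene's strand and ended before the first annotated exon. Capitals mark matches to a STAT6-like motif, TTC and GAA with any 4 bases between them, searched on both strands.
Retnla, chr16:48842359-48842550, plus strand: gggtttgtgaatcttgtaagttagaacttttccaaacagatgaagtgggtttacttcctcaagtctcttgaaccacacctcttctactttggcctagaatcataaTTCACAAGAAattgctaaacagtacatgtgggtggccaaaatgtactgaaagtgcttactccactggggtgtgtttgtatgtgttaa
Retnlg, chr16:48872358-48872607, plus strand: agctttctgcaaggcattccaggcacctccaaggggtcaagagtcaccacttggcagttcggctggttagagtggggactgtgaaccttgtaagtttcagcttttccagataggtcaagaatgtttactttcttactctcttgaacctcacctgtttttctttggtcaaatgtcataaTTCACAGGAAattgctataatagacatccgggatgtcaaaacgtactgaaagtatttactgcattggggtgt
Chil3, chr3:106167565-106167814, minus strand: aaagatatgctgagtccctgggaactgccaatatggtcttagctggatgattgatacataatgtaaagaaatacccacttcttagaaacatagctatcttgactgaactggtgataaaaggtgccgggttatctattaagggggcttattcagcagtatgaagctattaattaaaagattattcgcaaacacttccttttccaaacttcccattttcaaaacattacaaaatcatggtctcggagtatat
The Retnla match TTCACAAGAA lay 145 to 136 bases before its RefSeq start site (48842609). The Retnlg match TTCACAGGAA lay 72 to 63 bases before its own (48872608). These start sites differ from the GENCODE gene starts given above, so the 2 distances cannot be compared directly. The motif occurred in 6.95% of all 32851 such windows. The windows of Retnla and Retnlg were 78.1% identical over 228 aligned columns, and those of Chil3 and Chil4 92.3% identical over 272. The C/EBP-like letters TTGCNNAA, present in 10.8% of windows, matched in Retnla as TTGCTAAA, 134 to 127 bases before the start, and in Retnlg as TTCTGCAA on the other strand, 246 to 239 bases before it. The NF-kB-like motif, GGGA and TTCC with any 2 bases between them and present in 1.47% of windows, matched in Pglyrp1 as GGAAAGTCCC. It lay 93 to 84 bases before the RefSeq start (18884690), which is inside the GENCODE span of Pglyrp1. No match to these or to the AP-1-like TGANTCA (7.81% of windows) was found in the windows of Chia1, Chil1 or Chil3, which says only that these letters are not there. No binding was measured, so the matches are descriptions of sequence.

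Retnla was detected in AT2-derived cells of every library and was lowest in Confetti and in replicate 1 at 4 days. In Ptprc-zero cells it stood at 110 CPM in Confetti RFP and 137 CPM in Confetti YFP. At 4 days the RFP libraries had 90.8 and 551 CPM and the YFP libraries 74.9 and 1271 CPM in replicates 1 and 2. At 2 weeks the RFP libraries had 1196 and 396 CPM and the YFP libraries 1483 and 666 CPM. All 4 libraries at 2 weeks were above both Confetti libraries, while the replicates at 4 days fell on either side of them. The group means were 1075 ± 578 CPM (SD, n = 2) in 2 weeks YFP, 796 ± 566 in 2 weeks RFP, 673 ± 846 in 4 days YFP and 321 ± 326 in 4 days RFP, and no neighbours in this order separated beyond their spread.

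Chia1 ran the other way. It stood at 549 CPM in Confetti RFP and 420 CPM in Confetti YFP. At 4 days the RFP libraries had 419 and 54.5 CPM and the YFP libraries 346 and 124 CPM. At 2 weeks the RFP libraries had 106 and 53.6 CPM and the YFP libraries 147 and 98.5 CPM. The 4 libraries at or above 346 CPM of Chia1 were the 4 at or below 137 CPM of Retnla. The libraries thus formed 2 separate sets in these genes, and no correlation between the 2 genes over all 10 is given. The same 4 libraries had 522 to 724 CPM of Xist and at most 17.5 CPM of Ddx3y. The others had at most 224 CPM of Xist and at least 31.6 CPM of Ddx3y, so the sets cannot be told apart from the sexes pooled.

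**Figure D1:**
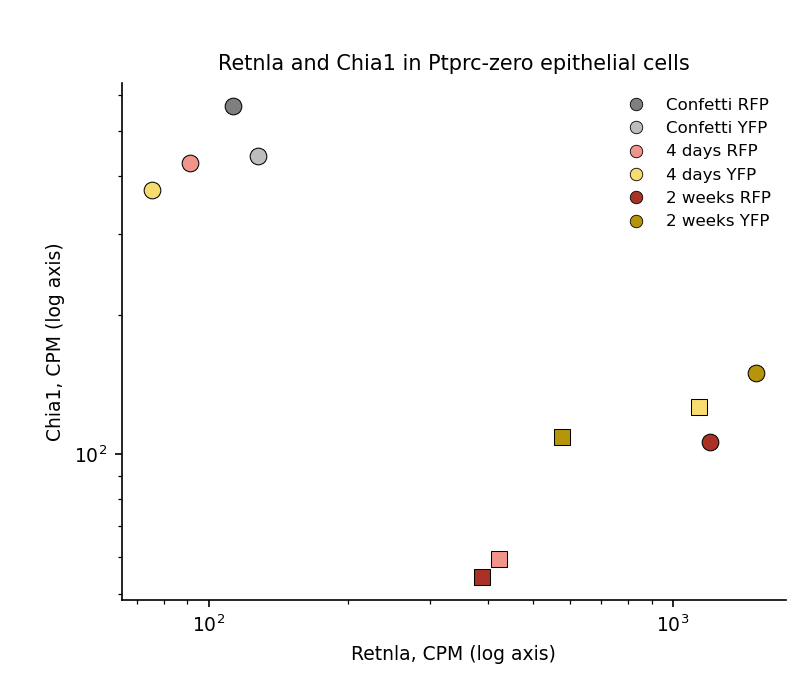
Chia1 against Retnla in Ptprc-zero cells of epithelial clusters, both in CPM on log axes, 1 point per library with colour for the group. Confetti and replicate 1 at 4 days sit at 373 to 566 CPM of Chia1 and 75.4 to 128 CPM of Retnla. The other 6 libraries sit at 54.4 to 150 CPM of Chia1 and 388 to 1505 CPM of Retnla.

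Retnlg, the neighbour of Retnla, was much lower in counts and was lowest in the same 4 libraries. Confetti RFP and YFP had 4.22 and 6.53 CPM in Ptprc-zero cells. At 4 days RFP had 3.92 and 37.3 CPM and YFP 2.15 and 28.8 CPM, and at 2 weeks RFP had 58.8 and 31.7 CPM and YFP 11.7 and 15.4 CPM. Both RFP libraries at 2 weeks were above both YFP libraries, an order that Retnla did not share. As far as equal replicate numbers can be matched, which the labels do not say, Retnlg was higher in RFP than in YFP within each number at both times.

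Chil1 was the steadiest member across libraries, its highest Ptprc-zero level 3.85-fold its lowest, against 19.8-fold for Retnla, 27.3-fold for Retnlg, 33.6-fold for Pglyrp1, 10.2-fold for Chia1 and 2.46-fold for the AT2 gene Sftpc. Confetti RFP and YFP had 2536 and 2132 CPM. At 4 days RFP had 1349 and 870 CPM and YFP 1570 and 1955 CPM, and at 2 weeks RFP had 1734 and 1822 CPM and YFP 2648 and 3355 CPM. At each time both RFP libraries were below both YFP libraries.

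Pglyrp1 was lowest in Confetti, at 15.3 CPM in RFP and 14.3 CPM in YFP. At 4 days RFP had 90.2 and 259 CPM and YFP 28.4 and 106 CPM, and at 2 weeks RFP had 480 and 194 CPM and YFP 165 and 56.5 CPM. All 8 libraries of the mutant line were above both Confetti libraries. As for Retnlg, the RFP library was above the YFP library of the same number at both times.

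Most Chil3 UMIs of Ptprc-zero cells were in cells of immune clusters. Chil3 stood at 9.26 and 10.6 CPM in Confetti RFP and YFP, at 0.294 and 37.6 CPM in 4 days RFP, and 0.258 and 20.8 CPM in 4 days YFP. At 2 weeks RFP had 9.71 and 39.4 CPM and YFP 18.4 and 710 CPM. Of its 9627 UMIs in Ptprc-zero cells, 94.8% came from the 402 cells that lay in immune clusters, of which 109 were in 2 weeks YFP replicate 2 and 120 in 4 days RFP replicate 2. In epithelial clusters Chil3 was 0 to 2.33 CPM in 9 libraries and 9.10 CPM in 2 weeks RFP replicate 2, the library with the highest Chil3 among Ptprc-positive cells. Within that library it was 9.45 CPM in primed AT2-like, 9.25 CPM in DATP-like and 5.01 CPM in cycling-like cells, and 9.34 CPM, from 5 UMIs, in 51 AT2-like cells. The part of free RNA in this level was not tested.

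**Figure D2:**
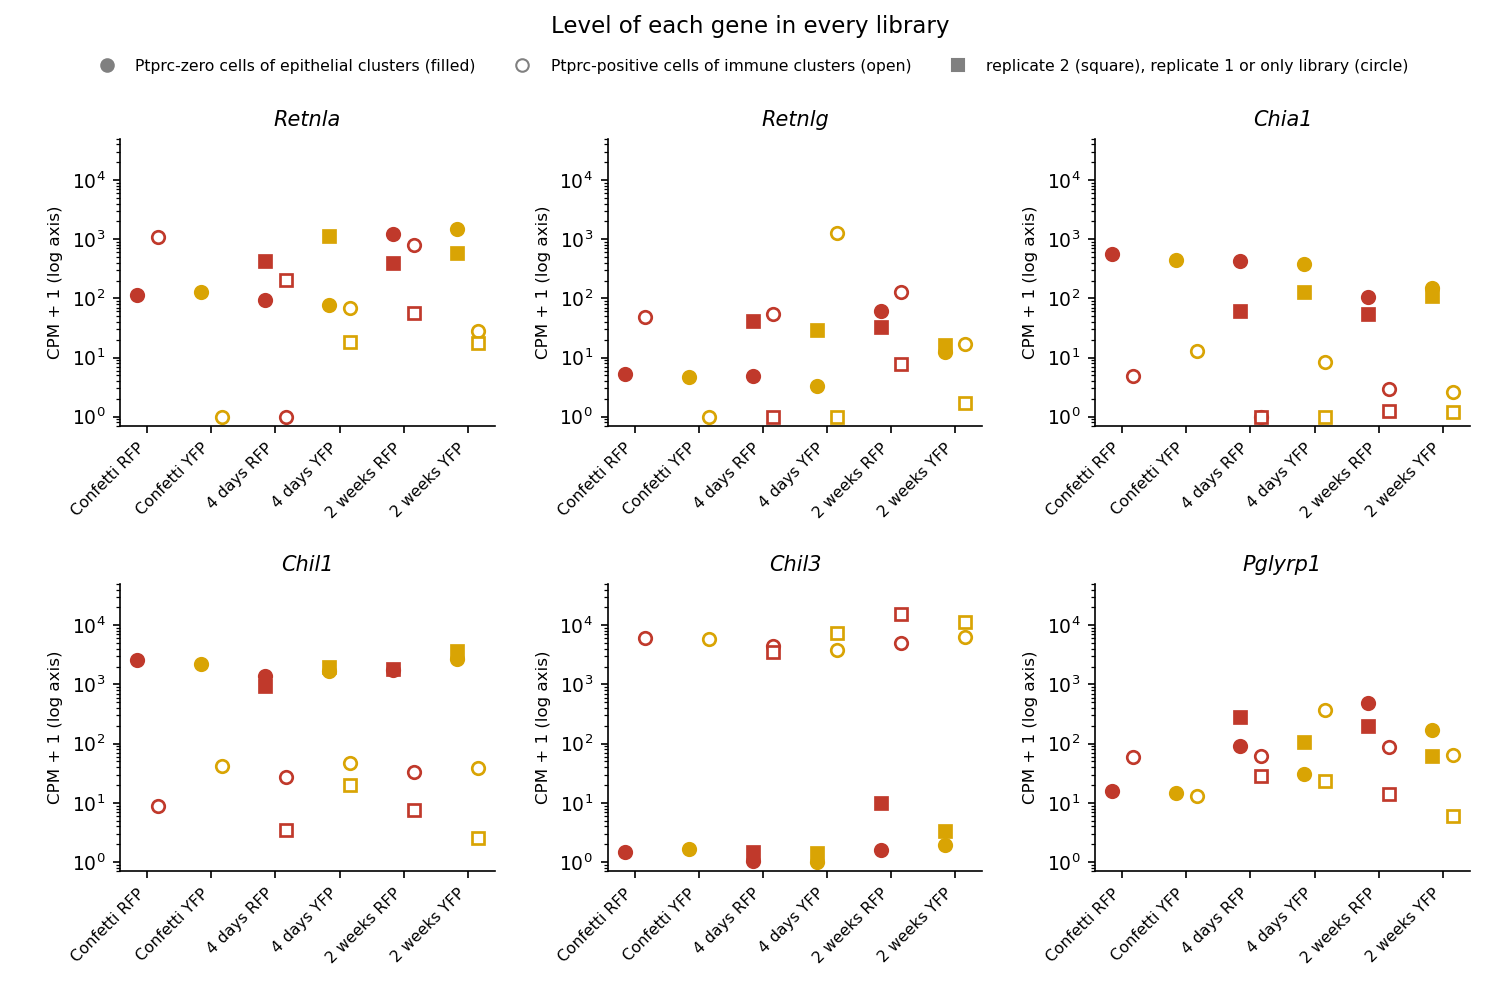
Level of each member by group, as CPM + 1 on a log axis, with filled points for Ptprc-zero cells of epithelial clusters and open points for Ptprc-positive cells of immune clusters without a subcluster led by AT2 genes (squares, replicate 2). Chil3 lies at 3579 to 15276 CPM in the immune cells and at most 9.10 CPM in the epithelial cells, while Chia1 and Chil1 are higher in epithelial cells of every library.

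Shares of cells with a UMI were compared after thinning each cell to 2000 UMIs. In epithelial clusters Retnla had a UMI in 8.74% and 8.68% of Confetti RFP and YFP cells, and in 6.35% to 37.6% of cells over the libraries of the mutant line (11.1% to 54.6% unthinned). Chia1 had one in 50.2% and 44.5% of Confetti cells and 5.81% to 39.2% of cells of the mutant line (14.8% to 56.4% unthinned). Pglyrp1 had one in 2.29% and 2.46% of Confetti cells and in 5.38% to 42.8% of cells over the libraries of the mutant line (12.5% to 80.3% unthinned). As a measure of free RNA, the 1461 alveolar macrophage-like cells (median 8562 UMIs, 15 to 602 per library) had a thinned share over libraries of 0% to 6.98% for Retnla, 0% to 5% for Chia1, 0% to 15% for Chil1 and 0% to 6.67% for Pglyrp1. The 6.98% was in 43 cells of 2 weeks RFP replicate 1, where Retnla had a UMI in 32.5% of epithelial cells, and replicate 2 had 1.90% in 527 cells against 14.4%. Pooled over libraries the shares were 1.37%, 0.342%, 3.42% and 0.753%, with Sftpc at 35.2%. In the endothelial-like or mesenchymal-like cells of the Confetti libraries themselves (69 in RFP and 110 in YFP, median 3581 and 2962 UMIs), Pglyrp1 had 1 and 3 UMIs, 3.61 and 8.18 CPM, and a thinned share of 1.59% and 1.02%. Their thinned shares were 7.94% and 4.08% for Chia1 and 23.8% and 17.3% for Chil1. Over all 10 libraries the endothelial-like or mesenchymal-like cells had 0 to 137 CPM of Pglyrp1, 0 to 215 of Retnla, 0 to 158 of Chia1 and 0 to 502 of Chil1. The 40 alveolar macrophage-like cells of Confetti YFP had 5% for Chia1 and 15% for Chil1, with Sftpc in 100%, and the 38 of Confetti RFP had 0% and 7.89%, with Sftpc in 76.3%. In epithelial clusters the Confetti shares were 50.2% and 44.5% for Chia1 and 95.2% and 94.1% for Chil1. The Retnlg shares in epithelial clusters were 0.414% to 6.30%, with 0.737% and 0.508% in Confetti, whose endothelial-like or mesenchymal-like cells had no Retnlg UMI.

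Retnla was spread unevenly over cells. After thinning, 10% of the epithelial cells held 90.0% of its UMIs and 1% of them held 39.8%, against 16.6% and 2.03% for Sftpc. The top 10% of cells held 77.2% of the Pglyrp1 UMIs, 63.8% of the Chia1 UMIs and 30.4% of the Chil1 UMIs. A rare gene is necessarily held by few cells, but Retnla at 37.6% detection in 4 days YFP replicate 2 was still held to 70.3% by the top 10%, whereas Chia1 at 36.6% detection in 4 days YFP replicate 1 was held to 55.6%. Cells with a Retnla UMI held 5.91 thinned UMIs of it on average, against 1.98 for Chia1. Up to 1781 Retnla UMIs were counted in 1 cell.

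**Figure D3:**
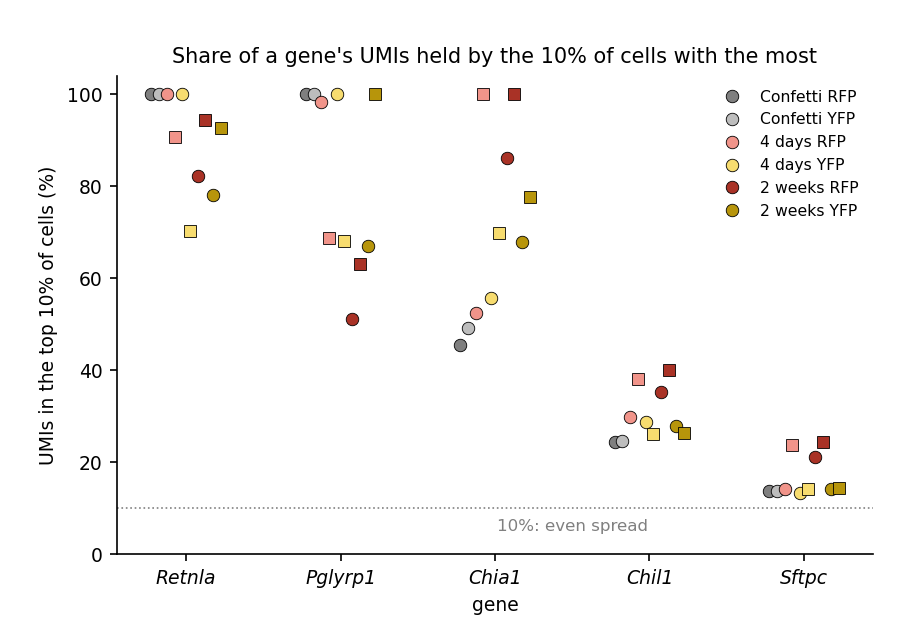
Percent of each gene's thinned UMIs held by the 10% of epithelial Ptprc-zero cells with most of them, 1 point per library, with a dotted line at the 10% that an even spread would give. Retnla lies at 70.3% to 100%, Chil1 at 24.3% to 40.0% and Sftpc at 13.4% to 24.5%.

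Detection of Retnla was compared between cells with and without each other member. The thinned share of epithelial cells with a Retnla UMI was higher among cells with a Retnlg UMI than among the others in 9 of 10 libraries, for example 58.3% of 254 against 30.7% in 2 weeks RFP replicate 1. In 4 days YFP replicate 1 it was 0 of 7 cells against 6.54%. It was also higher among cells with a Chil1 UMI in 10 of 10 libraries, for example 40.1% against 13.5% in 2 weeks RFP replicate 1, so that this was not particular to Retnlg. For Chia1 and for Pglyrp1 it was higher in 7 of 10. Cells with a Chil3 UMI were too few to compare, 45 in 2 weeks RFP replicate 2 and 0 to 12 in each other library. Cells with a Chia1 UMI had Retnla in 39.4% against 31.4% without it in 2 weeks RFP replicate 1, in 8.97% against 8.50% in Confetti RFP, and in 5.83% against 6.69% in 4 days RFP replicate 1.

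Clusters were named from marker lists. The leading genes of primed AT2-like clusters held Lcn2 in all 3, with Lrg1 in clusters 1 and 7, Il33 in cluster 1, and interferon and MHC genes such as Isg15 and B2m in cluster 12. DATP-like clusters (damage-associated transient progenitors) carried Krt8, Krt19 and Krt7, and cycling-like cells proliferation genes. Heat-shock genes Hspa1a and Hspa1b led the largest primed cluster. Meg3, Trf and Tspan8 led cluster 7, of whose cells 73.6% came from 2 weeks RFP replicate 2. Aqp5, from the alveolar type 1 marker list, was also among its leading genes. Its primed AT2 score was 1.08, near the limit of 1, so this name is tentative. The study describes a Cd177+ mixed state of mutant cells at later times, a name that no cluster received. Whether cluster 7 holds that state was not tested. Gzme, Mcpt8 and Spp1 were among the leading genes of the smaller DATP-like cluster. The AT2-like share was 96.6% in Confetti RFP and 1.85% in 2 weeks RFP replicate 2, so that the mixture of states changed along with the members.

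The AT2-like clusters were not alike in the members. Clusters 0, 2 and 4 had 136, 67.2 and 58.3 CPM of Retnla and 391.9, 515 and 472 CPM of Chia1. Cluster 3, in which Lcn2 and Lrg1 were among the leading genes, had 950 CPM of Retnla and 112 CPM of Chia1. Cluster 3 held most AT2-like cells of 4 days RFP replicate 2 (671 of 714), 4 days YFP replicate 2 (2455 of 2491) and 2 weeks YFP replicate 2 (718 of 832), and fewer than 50 cells of each Confetti library. In the clusters scored as primed AT2-like, 1, 7 and 12, Retnla was 1664, 925 and 1670 CPM, the last in the cluster led by interferon and MHC genes, and in cycling-like cells 1288 CPM. Primed AT2-like cells held 57.6% of all Retnla UMIs and AT2-like cells 16.6%, whereas AT2-like cells held 70.6% of all Chia1 UMIs. These shares are pooled over libraries that differ in depth and mixture of states. Within libraries Chia1 was higher in AT2-like than in primed cells in 6 of 7, by margins from 101 against 92.2 CPM in 4 days RFP replicate 2 and 172 against 145 CPM in 2 weeks YFP replicate 1 to 335 against 123 CPM in 2 weeks RFP replicate 1 and 940 against 65.7 CPM in replicate 2. In 4 days YFP replicate 2 it was 126 against 146 CPM.

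**Figure D4:**
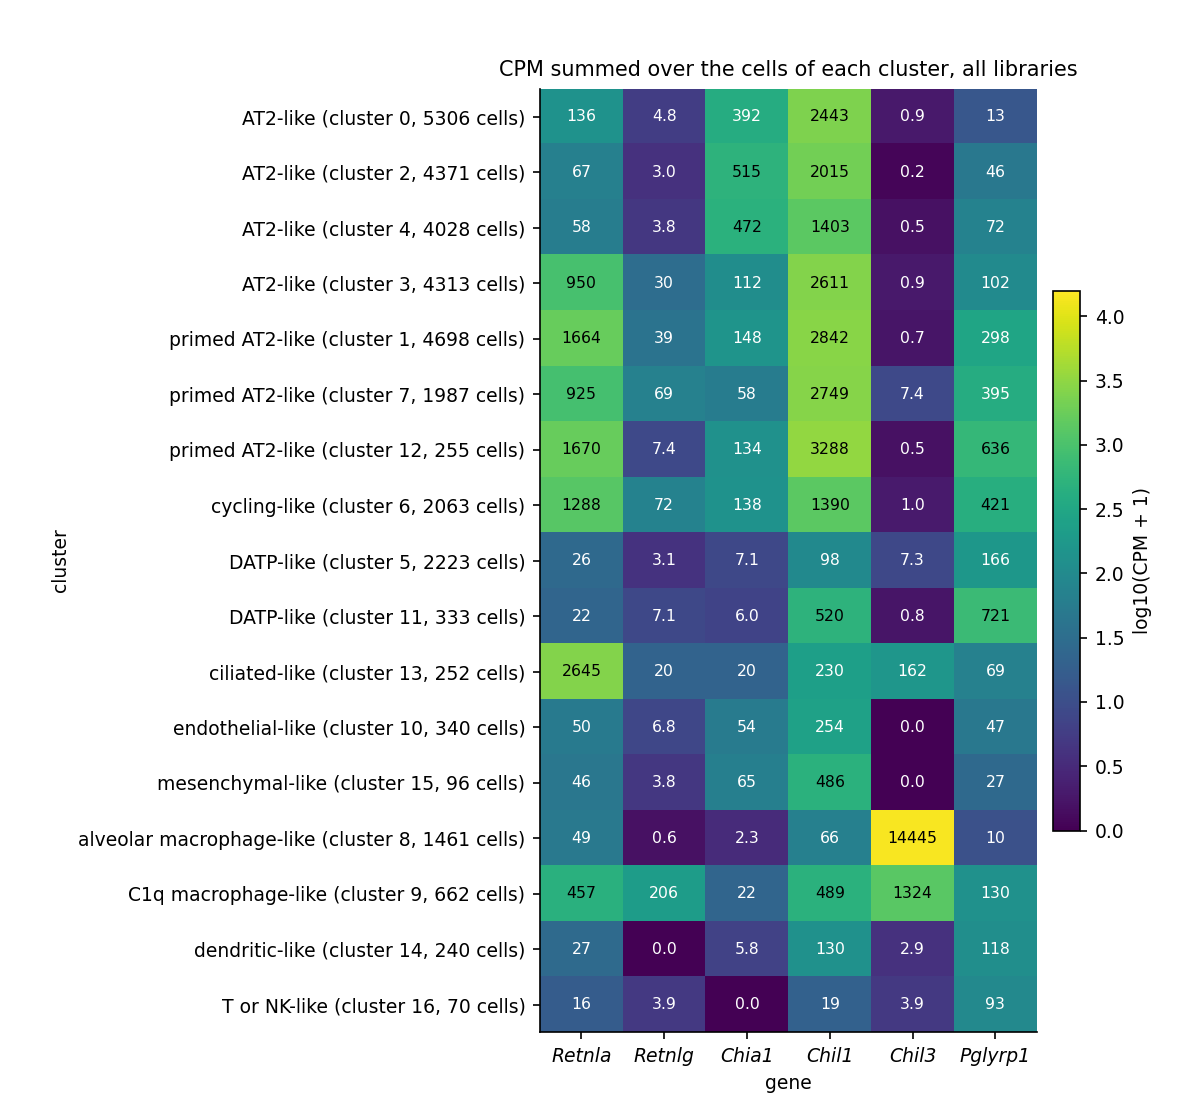
Level of the members in each of 17 clusters, as CPM summed over all libraries, printed in the cell and coloured by log10(CPM + 1). Retnla is high in cluster 3, primed AT2-like, cycling-like and ciliated-like cells, Chia1 in AT2-like clusters 0, 2 and 4, Chil1 in all AT2-like, primed and cycling-like clusters, and Chil3 in alveolar macrophage-like cells (14445 CPM).

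Within libraries the primed cells stood above the AT2-like cells for Retnla in 6 of 7 libraries that held both. Over libraries with at least 50 cells of a state, Retnla was 67.1 to 1007 CPM in AT2-like cells (median 180, 10 libraries), 255 to 2423 CPM in primed AT2-like cells (median 1655, 7 libraries) and 66.6 to 1636 CPM in cycling-like cells (median 664, 8 libraries). It was 716 CPM in primed against 71.0 CPM in AT2-like cells of 4 days RFP replicate 1, and 1788 against 654 CPM in 2 weeks YFP replicate 1. The exception was 2 weeks YFP replicate 2, with 255 CPM in primed and 695 CPM in AT2-like cells, most of the latter in cluster 3. In 4 days YFP replicate 2, 109 of 153 primed cells lay in cluster 12, with 2098 CPM, and the other 44 had 3261 CPM, against 1007 CPM in AT2-like cells. Without cluster 12, an alternative chosen after seeing the data, Retnla was higher in primed cells in 6 of the same 7 libraries. Most primed cells of 2 weeks RFP replicate 2 lay in cluster 7, whose name is tentative, and no value without cluster 7 is given. Pglyrp1 was higher in primed than in AT2-like cells in all 7 libraries with both, for example 908 against 267 CPM in 4 days RFP replicate 2 and 183 against 62.1 CPM in 2 weeks YFP replicate 1. In 2 weeks YFP replicate 2 it was 187 against 18.2 CPM over all 124 primed cells, but 14.2 CPM, from 9 of the 207 UMIs, in the 85 of them that lay in cluster 1.

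DATP-like cells, present with at least 50 cells in 3 RFP libraries, had less of Retnla, Chia1 and Chil1 than AT2-like cells of the same library. Retnla was 19.8, 28.8 and 23.6 CPM there in 4 days RFP replicate 2 and 2 weeks RFP replicates 1 and 2, against 589, 248 and 91.5 CPM in AT2-like cells. Chia1 was 8.36, 8.02 and 4.66 CPM against 101, 335 and 940 CPM, the last value from 51 cells. Chil1 was 49.2, 259 and 119 CPM against 1660, 1970 and 2748 CPM, and Retnlg 4.95, 6.63 and 0.945 CPM against 53.5, 15.8 and 3.74 CPM, the last being 2 UMIs, from which no direction is read. Sftpc was lower there as well, at 3052, 5077 and 13905 CPM against 121860, 116113 and 149931 CPM. Pglyrp1 was kept in DATP-like cells, at 151, 423 and 132 CPM against 267, 179 and 65.4 CPM, the lower value in DATP-like cells in 1 library and the higher in 2. The smaller DATP-like cluster had 721 CPM of Pglyrp1 and the larger 166 CPM. Of the smaller cluster 92.8% of cells came from 2 weeks RFP replicate 1, and of the larger 49.4% from replicate 2. The contrast cannot be told apart from the library.

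**Figure D5:**
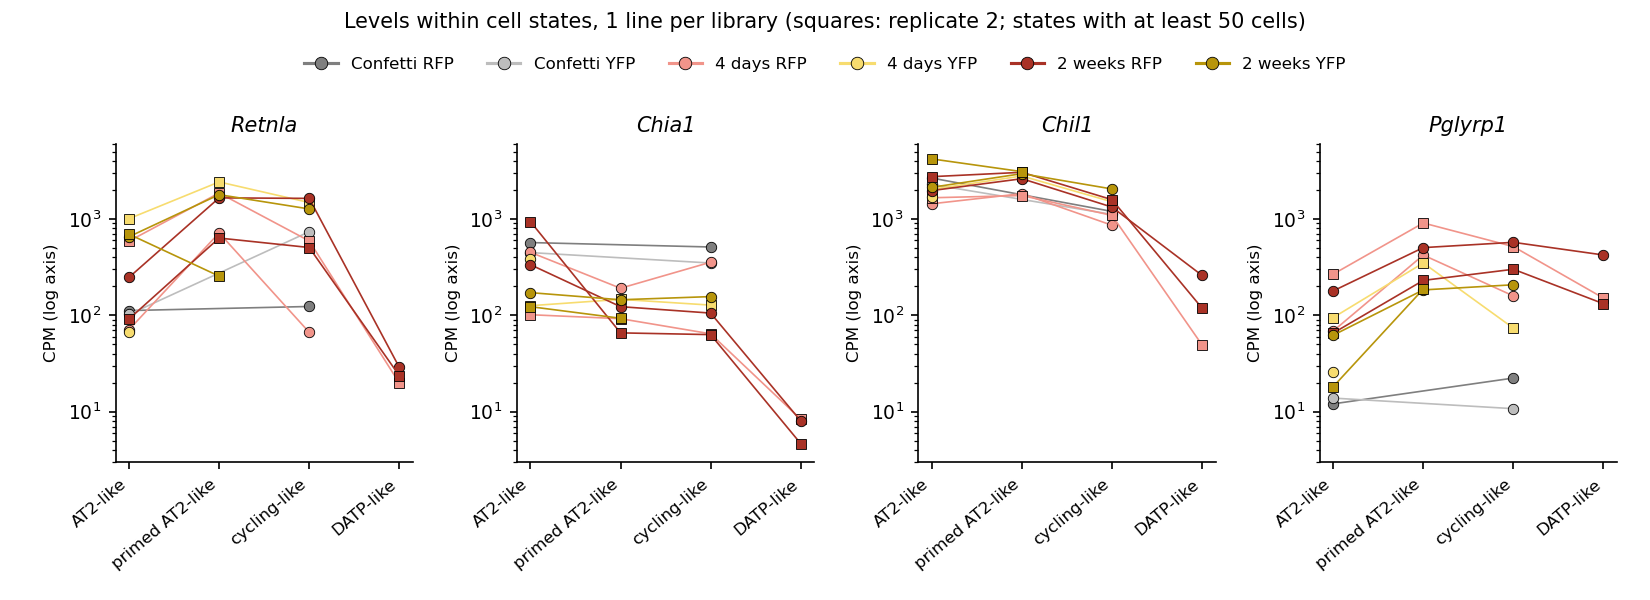
Level of Retnla, Chia1, Chil1 and Pglyrp1 in CPM on a log axis across AT2-like, primed AT2-like, cycling-like and DATP-like Ptprc-zero cells, 1 line per library with at least 50 cells in the state. Retnla, Chia1 and Chil1 are lowest in DATP-like cells of all 3 libraries drawn there, while Pglyrp1 stays at 132 to 423 CPM.

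The highest Retnla level of any cluster, 2645 CPM, was in 252 ciliated-like cells, which also carried the club cell gene Scgb1a1. It ranged from 40.2 to 12992 CPM over libraries with 5 to 51 such cells each and rested on few cells. In Confetti YFP 205 of 226 UMIs came from 1 cell, and in 4 days YFP replicate 2 the top cell of 17 held 908 of 2949.

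In Ptprc-positive cells the members parted by gene. Chil3 was higher there than in Ptprc-zero cells of the same library in 10 of 10 libraries, and Chia1 and Chil1 were lower in 10 of 10. Among all 14494 genes tested, 14.3% were higher in all 10 libraries and 16.1% lower in all 10. Retnla was higher in Ptprc-positive cells in 1 library, Retnlg in 5 and Pglyrp1 in 3. The mean difference, Ptprc-positive minus Ptprc-zero on the log2(CPM + 1) scale, was 8.30 for Chil3, -4.16 for Chia1, -3.45 for Chil1, -1.73 for Retnla, -0.67 for Pglyrp1 and 0.50 for Retnlg. The Retnlg difference was -0.39 without 4 days YFP replicate 1 and up to 2.77 under other alternatives. That of Pglyrp1 was 0.40 with no filter on cells.

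Values for Ptprc-positive cells of immune clusters leave out 1 subcluster with Sftpc, Sftpa1 and Sftpb among its leading genes (186 cells, 71.5% Ptprc-positive), unless it is said to be kept. Chil3 was 6053 and 5785 CPM in such cells of Confetti RFP and YFP. At 4 days RFP had 4455 and 3579 CPM and YFP 3783 and 7337 CPM, and at 2 weeks RFP had 4936 and 15276 CPM and YFP 6222 and 11365 CPM. The highest values were in replicate 2 at 2 weeks of both colours, the libraries with 641 and 588 such cells against 29 to 151 in the others. Alveolar macrophage-like cells held 96.9% of all Chil3 UMIs, at 6450 to 16588 CPM over the 10 libraries. When the immune cells were clustered alone, Chil3 was 8074 to 17995 CPM in 4 alveolar macrophage-like subclusters, 13006 CPM in a proliferating subcluster and 12479 CPM in an unnamed subcluster led by Wfdc17, Mmp12 and Spp1. It was 10932 CPM in immune subcluster 10, with a UMI in 84.7% of its cells, 933 CPM in monocyte-like and 72.3 CPM in C1q macrophage-like cells.

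Retnla in Ptprc-positive cells rested on few cells. In immune clusters it had 1841 UMIs in 64 of 1898 cells, and 10 cells held 92.6% of them. The 1097 CPM of Confetti RFP were 283 UMIs of 1 cell among 51, and over all Ptprc-positive cells of that library Retnla went from 830 CPM to 7.70 CPM when at least 2 Ptprc UMIs were asked for. Confetti YFP and 4 days RFP replicate 1 had no Retnla UMI in 39 and 29 immune cells, where 3 counts would correspond to 17.8 and 26.3 CPM. The other libraries had 16.4 to 785 CPM. By subcluster Retnla was 933 CPM in an unnamed subcluster led by H2-Eb1, Cd74 and Mgl2, and 711 CPM in C1q macrophage-like cells, against 1.32 to 2.77 CPM in the alveolar macrophage-like subclusters.

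Retnlg in immune clusters had 729 UMIs in 20 cells, 510 of them in 8 cells of 4 days YFP replicate 1 (1262 CPM). It was 1066 CPM in immune subcluster 10 (98 cells), with a UMI in 19.4% of them. This subcluster is left unnamed, since its leading genes held the neutrophil genes S100a8 and S100a9 beside Wfdc21, Car4, Wfdc17 and Ccl6, which also led alveolar macrophage-like subclusters. Pglyrp1 was 4.95 to 376 CPM over libraries in immune clusters, highest in the same 4 days YFP library, and by subcluster 432 CPM in monocyte-like and 285 CPM in immune subcluster 10. Chia1 was 0 to 11.9 CPM and Chil1 1.57 to 47.0 CPM in these cells, from which the AT2-marker subcluster had been left out. With its 133 Ptprc-positive cells kept, Chia1 was 0 to 51.9 CPM and Chil1 9.79 to 354 CPM, and these cells held 85 of 97 Chia1 UMIs and 2257 of 2420 Chil1 UMIs. Over all Ptprc-positive cells Chia1 was highest in Confetti YFP (68.8 CPM, where AT2 markers summed to 25583 CPM) and Chil1 in 2 weeks RFP replicate 1 (555 CPM, with 37261 CPM of AT2 markers and 22.7 CPM of Chia1). The part of doublets and free RNA in these levels was not tested.

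The comparison of RFP with YFP cells asks how mutant cells differed from their wildtype neighbours. Differences are given on the log2(CPM + 1) scale of Ptprc-zero cells with the within-group SD. At 4 days 1 of 6 members had groups that did not overlap, where 14.1% of all 14828 genes were higher and 10.1% lower without overlap. This was Chil1, lower in RFP by a difference of -0.69 (SD 0.35, n = 2 per group). DATP-like cells, with 49.2 CPM of Chil1, were 36.4% of the epithelial cells of 4 days RFP replicate 2 and at most 0.307% in YFP. In AT2-like cells alone Chil1 was 1437 and 1660 CPM in RFP against 1686 and 2031 CPM in YFP. Pglyrp1 was 1.46 higher in RFP (SD 1.20), and Retnla (-0.46, SD 2.41), Retnlg (0.50, SD 2.20), Chia1 (-0.45, SD 1.63) and Chil3 (0.43, SD 3.20) differed by less than their spread. Leaving out 1 library turned the sign of those 4 genes but not of Chil1 (-1.01 to -0.38) or Pglyrp1 (0.53 to 2.39).

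At 2 weeks 2 of 6 members were higher in RFP without overlap, against 33.4% of all genes, and 1 was lower, against 16.6%. Retnlg was 1.62 higher (SD 0.47), Pglyrp1 1.65 higher (SD 1.00) and Chil1 differed by -0.75 (SD 0.17). Leaving out 1 library gave 1.18 to 2.05 for Retnlg, 0.89 to 2.41 for Pglyrp1 and -0.92 to -0.58 for Chil1. Chia1 differed by -0.67 (SD 0.56) and Retnla by -0.53 (SD 0.98), both with overlap. Chia1 was -1.15 to -0.19 on leaving out 1 library, and Retnla turned sign without 2 weeks RFP replicate 2 or YFP replicate 1. Between libraries of equal number, which the labels do not pair, both were lower in RFP in each, Retnla at 1196 against 1483 and 396 against 666 CPM and Chia1 at 106 against 147 and 53.6 against 98.5 CPM. Within states the Chil1 ranges overlapped, at 2617 and 3050 CPM in RFP against 2953 and 3100 CPM in YFP in primed AT2-like cells, and 1970 and 2748 against 2130 and 4202 CPM in AT2-like cells. The RFP libraries also held 817 and 1103 DATP-like cells, with 259 and 119 CPM of Chil1. Retnlg overlapped in AT2-like cells, at 15.8 and 3.74 CPM in RFP against 9.80 and 18.5 CPM in YFP. In primed cells it did not, at 70.4 and 52.1 against 11.6 and 6.33 CPM. Pglyrp1 overlapped in neither, at 179 and 65.4 against 62.1 and 18.2 CPM in AT2-like and 504 and 230 against 183 and 187 CPM in primed cells. The Chil3 difference of -2.50 (SD 2.77) became 0.67 in epithelial clusters alone. Since the members were selected on their levels, nothing is read from these counts.

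Against Confetti, in which both colours are wildtype, 3 of 6 members were higher in 2 weeks RFP without overlap (33.2% of all genes) and 2 were lower (38.5%). Pglyrp1 was 4.28 higher (SD 0.65), Retnlg 2.82 (SD 0.51) and Retnla 2.48 (SD 0.81), while Chia1 differed by -2.66 (SD 0.52) and Chil1 by -0.39 (SD 0.13). The mixture of states differed too, AT2-like cells being 9.17% and 1.85% of the 2 weeks RFP libraries. In AT2-like cells alone, 2 weeks RFP replicate 2 (51 cells) had 91.5 CPM of Retnla, 3.74 of Retnlg and 940 of Chia1, against 112 and 102, 4.21 and 3.80, and 569 and 448 CPM in Confetti, so that the directions of Retnla and Chia1 turned in that library. Its Retnlg value is 2 UMIs, from which no direction is read. Chil1 was 2748 CPM there, against 2658 and 2283 CPM in Confetti, and turned as well, while Pglyrp1 kept its direction at 65.4 against 12.04 and 13.8 CPM. Replicate 1 (370 cells) had 248 CPM of Retnla, 15.8 of Retnlg, 335 of Chia1, 1970 of Chil1 and 179 of Pglyrp1, and kept all 5 directions. In 2 weeks YFP, the wildtype neighbours of mutant cells, 5 members were higher without overlap (15.8% of all genes) and 1 was lower (39.0%). Retnla was 3.01 higher (SD 0.60), Pglyrp1 2.63 (SD 0.77), Retnlg 1.20 (SD 0.32), Chil1 0.36 (SD 0.21) and Chil3 3.43 (SD 2.598), and Chia1 differed by -1.99 (SD 0.35). The Chil1 value was 0.59 with median-ratio scaling and 0.19 to 0.53 on leaving out 1 library. In AT2-like cells alone, 25.1% and 83.0% of these libraries, Chil1 was 2130 and 4202 CPM and overlapped Confetti. Retnla (654 and 695 CPM), Retnlg (9.80 and 18.5), Pglyrp1 (62.1 and 18.2) and Chia1 (172 and 123) kept their directions there. The Chil3 value was 0.70 in epithelial clusters. The comparisons of both colours with Confetti share the Confetti libraries. The Confetti side is 1 library of each colour in 1 group, and line and sex cannot be told apart from the group.

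Related genes were tested with edgeR's quasi-likelihood test with Benjamini-Hochberg adjustment over all genes. The lists were family relatives, type 2 cytokine and alternative activation genes, receptors described for the members, and secreted antimicrobial genes, 49 tested of 68. In the 4 group comparisons 0 of 49 passed, while 5, 5, 9 and 5 had an unadjusted p under 0.05. Over all 14828 genes 0% passed for RFP against YFP at 4 days and at 2 weeks, 0.0202% for 2 weeks RFP against Confetti and 0.00674% for 2 weeks YFP against Confetti. Unadjusted p under 0.05 was reached by 514, 1883, 3675 and 623 of all genes. DESeq2 called 0, 1, 6 and 1 of the related genes and 44, 330, 1794 and 49 of all genes. A fit with a block for equal replicate numbers, which the labels do not pair, called 5 related genes and 2175 of all genes for 2 weeks RFP against Confetti.

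Of the genes named by rule, Lgals3, a sugar-binding protein, had a log2 fold change of 2.26 (SE 0.78, edgeR adjusted p = 0.140) in 2 weeks RFP against Confetti and 1.96 (SE 0.77, adjusted p = 0.999) in RFP against YFP at 4 days. Ctbs, a lysosomal enzyme that cleaves chitobiose, had 1.10 (SE 0.28, adjusted p = 0.0966) in 2 weeks RFP against Confetti. The lysozyme gene Lyz2 had -1.74 (SE 0.63, adjusted p = 0.155) there. In that comparison Lgals3, Ctbs and Lyz2 were among the 6 related genes that DESeq2 called. Il33, an epithelial alarmin, had -1.30 (SE 0.57) in RFP against YFP at 4 days, -0.98 (SE 0.57) at 2 weeks and 1.22 (SE 0.57) in 2 weeks YFP against Confetti. The median log2 fold change of the type 2 genes was 0.35, -0.50, 0.28 and 0.93 in the 4 comparisons, where the medians over all genes were -0.03, -0.01, 0.02 and 0.00. It was 0.18, -0.44, -0.11 and 0.33 for the receptors and -0.55, -0.76, -0.41 and 0.74 for the antimicrobial genes. No median is given for the family relatives, since Retnlb, Chil4 and Pglyrp2, 3 of the 5 tested, had 0, 1 and 3 UMIs in Confetti. Chid1, Klf4, Cd44 and Sftpa1, the other genes named, had log2 fold changes of -0.90 to 0.57 over the 4 comparisons, and none passed.

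The type 2 cytokines themselves were nearly absent from these libraries. Il4 had 11 UMIs in Ptprc-zero and 7 in Ptprc-positive cells, Il13 had 6 and 13, and Il25 had 4 and 1. The receptor gene Il4ra was at 12.5 to 60.2 CPM and Stat6 at 15.98 to 28.3 CPM in Ptprc-zero cells, and Il33 at 196 to 958 CPM. Close relatives were rare too. Retnlb had 100 UMIs in Ptprc-zero cells and 0 in Ptprc-positive cells, Chil5 17 and 3, Chil6 22 and 0, Chit1 10 and 0, and Pglyrp2 91 and 6, while Pglyrp3 had 1 in all and Pglyrp4 none. Most Ptprc-zero UMIs of Retnlb (71 of 100) and of Chil4 (114 of 127) were in 2 weeks RFP replicate 1, the deepest library, at 0.991 and 1.59 CPM. Both genes lie beside a member, Retnlb beside Retnla and Chil4 beside Chil3.

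Between Ptprc-positive and Ptprc-zero cells of the same libraries 39 of 52 related genes passed, 31 higher and 8 lower in Ptprc-positive cells, where 57.0% of all 14494 genes passed, 26.0% higher and 31.0% lower. The median log2 fold change was 2.39 for type 2 genes, 2.13 for receptors and -0.23 for antimicrobial genes, against -0.11 over all genes. Of the type 2 and alternative activation genes 17 were higher and 1, Il33, lower of 22 tested. Il2rg, the common cytokine receptor chain, had a log2 fold change of 4.74 (SE 0.35, edgeR adjusted p = 6.4e-08) and Mrc1, the mannose receptor of macrophages, 6.57 (SE 0.51, adjusted p = 1.2e-07). Pdcd1lg2 had 5.08 (SE 0.45) and the chemokine gene Ccl17 6.19 (SE 0.60). Among receptors 8 of 9 were higher, including Tlr2 (6.90, SE 0.49), Trem1, which binds Pglyrp1 (7.17, SE 0.57), the hyaluronan receptor Cd44 (2.57, SE 0.19) and Cap1, described for resistin (2.13, SE 0.17). Of the antimicrobial genes 5 were higher and 7 lower of 16, with the collectins Sftpa1 (-3.43, SE 0.33) and Sftpd (-3.44, SE 0.35) and Wfdc2 (-3.01, SE 0.31) on the lower side. Camp was called higher, but it had UMIs in only 4 Ptprc-positive libraries, up to 704 CPM. Of 5 family relatives only Retn, resistin, passed (3.62, SE 0.89, edgeR adjusted p = 0.0030), on 34 Ptprc-positive and 38 Ptprc-zero UMIs, and it did not pass when at least 2 Ptprc UMIs were asked for (2.14).

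Genes whose levels over the 10 libraries were most like each member's in Ptprc-zero cells were ranked by Pearson's r of log2(CPM + 1) over 10098 genes. For Retnla they were Lcn2, a lipocalin that binds bacterial siderophores (r = 0.98, 1906 to 6795 CPM), Lrcol1 (0.97) and Fcer2a (0.96), both with at most 5.94 and 11.3 CPM. For Chia1 they were Selenop (0.98), Arhgef38 (0.98) and Cfap20 (0.98), and for Retnlg Tbc1d31 (0.96), Ppih (0.96) and Slc39a11 (0.95). For Chil1 they were Agpat2 (0.98), Gpx4 (0.94) and Naprt (0.94), and for Pglyrp1 the replication factor gene Pclaf (0.96), Ccdc58 (0.95) and Rbm3 (0.95). For Chil3 they were Ccl6 (0.95), Fes (0.94) and Ear2 (0.93), of which Ccl6 and Ear2 led alveolar macrophage-like subclusters. These are the highest of many values over few libraries that fell into separate sets, and all points share library depth and cell mixture.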

How the data were processed

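The submitters' processing notes name Cell Ranger 3.1.0, FastQC 0.11.3 and MultiQC 1.8, with reads aligned to GRCm38. For each library the authors deposited 1 matrix of UMI counts, not normalized, with genes by cells. Notes and file headers give different Cell Ranger versions, and labels and methods different 10x chemistries. Cells with at least 1000 genes, at most 50000 UMIs and at most 15% mitochondrial UMIs were kept, and clustered in scanpy 1.11.5 without the members. Scrublet marked 940 cells as doublets, which were kept and left out in an alternative. Counts were summed per library and cell class and divided by the class total (CPM), and the log2 scale used a pseudocount of 1. Related genes were tested with edgeR 4.0.16 (quasi-likelihood, Benjamini-Hochberg) and alternatively DESeq2 1.42.0, with a library block between cell classes, and the fit was tested on simulated data. UMI levels and floors cover counting error only. The members and lists were chosen with earlier results of these data known. Named were all members, per comparison and list up to 4 genes passing by lowest adjusted p or else 2 of highest level, and 3 similar genes per member. Chia2, Ear11 and Clec7a were not matched. The mutated gene of the mutant line is not reported here.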

Additional observations from a re-analysis of the deposited data

Results flagged for a closer look

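Among 24 sets of 4 libraries of 1 colour of the mutant line, 4 held a library set apart from the rest by a gap beyond Dixon's 95% critical value. Chance gives about 1 in 20 for like libraries, but each set mixes 4 days with 2 weeks libraries and the members were selected because they vary, so the values are a description. Retnlg in Ptprc-positive cells was 1093 CPM in 4 days YFP replicate 1, and 3.02 to 35.1 CPM in the other YFP libraries. Outside the AT2-marker subcluster of its immune clusters, 510 Retnlg UMIs came from 8 cells.

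Chia1 in Ptprc-zero cells was 419 CPM in 4 days RFP replicate 1, and 53.6 to 106 CPM in the other RFP libraries. The Confetti libraries had 549 and 420 CPM.

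Chil3 in Ptprc-positive cells was 13988 CPM in 2 weeks RFP replicate 2, and 2692 to 3383 CPM in the other RFP libraries. Chil3 in Ptprc-zero cells was 710 CPM in 2 weeks YFP replicate 2, and 0.258 to 20.8 CPM in the other YFP libraries. In epithelial clusters of that library it was 2.33 CPM, and 109 of its Ptprc-zero cells lay in immune clusters.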

How the results depend on the processing

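The calls in comparisons of groups depended on the tool and filter, and their cause was not tested. Of 49 related genes, where edgeR called 0, DESeq2 called 1 for RFP against YFP at 2 weeks, 6 for 2 weeks RFP against Confetti and 1 for 2 weeks YFP against Confetti. With no low-count filter 7 and 2 were called in the comparisons with Confetti, and in epithelial clusters 1 for 2 weeks RFP. Over all genes, against 0, 0, 3 and 1, DESeq2 called 44, 330, 1794 and 49 and no low-count filter gave 99, 318, 1886 and 117. Epithelial clusters gave 1 at 2 weeks, 745 for 2 weeks RFP and 3 for 2 weeks YFP against Confetti. Leaving out 1 library gave 0 to 1 at 4 days, 0 to 190 for 2 weeks RFP and 0 to 3 for 2 weeks YFP against Confetti. The labels give colours the same replicate numbers but do not pair them. Deviations of equal numbers from their group means correlated at 0.44 (4 days) and 0.59 (2 weeks) across 14828 genes, and a replicate block called 5 related genes and 2175 of all genes for 2 weeks RFP and 5 of all genes for 2 weeks YFP against Confetti.

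Members higher in Ptprc-positive cells were 2 by mean difference, 1 with a pseudocount of 0.1, and 1 to 2 on leaving out a library. With no filter on cells Pglyrp1 was higher as well. In immune clusters without their AT2-marker subcluster the mean over libraries was 2.72 CPM for Chia1 and 22.3 CPM for Chil1, against 21.2 and 250 CPM, and leaving out that subcluster lowers these AT2 genes by construction. With it kept, both means moved by less than the spread between libraries. Called related genes between cell classes were 35 to 39 on leaving out a library. Leaving out high doublet scores from the tests of related genes is an alternative chosen after seeing the data, as are member levels in epithelial or immune clusters alone. Of 276 member differences under alternatives 270 moved by less than the spread between libraries and 6 by more. Median-ratio scaling moved the median of all genes by 0.10 (2 weeks RFP against YFP) and 0.18 (2 weeks YFP against Confetti), and turned no member's direction. With 2 libraries per group and 1 per Confetti colour, differences within the spread were not detectable. For RFP and YFP, Ptprc-zero levels of Chil3 are limited by leukocytes without a Ptprc UMI.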
